A study of Mus musculus with 12 samples.

Results

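The 8 E2F transcription factors of the mouse (E2f1 to E2f8), Foxm1 and Mybl2 were described as one group of 10 genes, chosen by gene symbol as regulators of the cell cycle programme, out of 24421 genes in the count table. All 10 were found in it. Ribosome-protected fragments (RPF, the pieces of mRNA that a ribosome shields from nuclease) and total RNA were sequenced from B16 cells, a mouse melanoma line grown in DMEM with serum, antibiotics and L-glutamine. The cells were transduced with lentivirus for a non-relevant shRNA (shControl) or for the shRNA sh309 against Elp3 (shElp3), the catalytic subunit of the Elongator complex, which takes part in modifying the wobble uridine of certain tRNAs. The 4 groups had 3 libraries apiece with the letters A to C, and the labels tie each RPF library to the total RNA of the same shRNA and letter, which gives 6 cultures. The model is 1 cell line with 1 shRNA per target, and nothing states that the cultures were separate transductions, so the p-values may reflect technical spread alone.

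E2F proteins bind DNA mostly as dimers with a DP partner and are held in check by the retinoblastoma family of pocket proteins until cyclin-dependent kinases phosphorylate them. E2F1, E2F2 and E2F3 are classed as activators of genes for DNA replication, E2F4, E2F5 and E2F6 as repressors, and E2F7 and E2F8 as atypical repressors that bind without a DP partner and are themselves transcribed late in G1 and in S phase. The MYB protein encoded by Mybl2 joins the MuvB core complex in S phase and FOXM1 joins later, and together they drive genes of G2 and mitosis, among them through a promoter element called the cell cycle genes homology region (CHR).

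Library totals were 7914369 to 16527864 counts in RNA and 7619269 to 10998570 in RPF. Elp3 itself was at 47.4% of the control mean in RNA and at 52.3% in RPF, with no overlap between the shRNA groups in either fraction (edgeR log2 fold change -1.08 in RNA and -0.93 in RPF, adjusted p = 0.0831 and 0.0249, and 0.000977 in RNA with the letter as a term). Letter A stood apart from B and C except in shElp3 RPF: Spearman correlations across genes were 0.891 to 0.948 for pairs with A in the other 3 groups and 0.987 to 0.993 for B with C. Results are therefore also given from letters B and C only. All 7 melanocyte markers were detected, and their log2 fold changes were all below 0, with medians of -0.71 in RNA and -1.04 in RPF. They summed to 8820 to 11800 CPM (reads scaled to library size with TMM factors) in control RNA and 5860 to 7400 in shElp3 RNA, and Pmel, a melanosome protein, fell in both fractions (edgeR log2 fold change -1.59 and -1.81, adjusted p = 0.0396 and 0.0364). Of 8 leukocyte markers Ptprc and Cd3e had 1 read each in the 12 libraries together, whereas Cd68, a lysosomal protein, had 2319 and Lyz2 353. The leukocyte sums were 7.7 to 22.4 CPM in control RNA and 6.23 to 12.1 in shElp3 RNA, and 23.7 to 77.3 and 14.7 to 33.3 CPM in RPF. Of 8 fibroblast markers Dcn had 0 reads and Col3a1 and Lum 1 each. The fibroblast markers summed to 30.4 to 37.8 CPM in control RNA and 48.1 to 62.2 in shElp3 RNA. In RPF they summed to 54.9 to 66.2 CPM in control and 78.3 to 105 in shElp3. These sums were carried mostly by Postn, Pdgfra and Col1a1. Col1a1 was called higher in RPF (edgeR log2 fold change 1.48, adjusted p = 0.0203), whereas Postn and Pdgfra were not called. The part of these marker shifts in the results below was not tested.

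RefSeq promoter windows (build GRCm38.p6, which is mm10) were matched for 7 of the 10 genes, in 9 windows. Those of E2f2, E2f3 and E2f7 are shown because their start lies within 1 base of the outer edge of the gene, and because E2f2 and E2f7 fell in RNA below, with the letter as a term, while E2f3 did not. Each line gives the 250 bases before the start, 5′ to 3′ on the gene's strand, with matches to E2F or CHR letters in capitals.
E2f7, chr10:110745189-110745438, plus strand: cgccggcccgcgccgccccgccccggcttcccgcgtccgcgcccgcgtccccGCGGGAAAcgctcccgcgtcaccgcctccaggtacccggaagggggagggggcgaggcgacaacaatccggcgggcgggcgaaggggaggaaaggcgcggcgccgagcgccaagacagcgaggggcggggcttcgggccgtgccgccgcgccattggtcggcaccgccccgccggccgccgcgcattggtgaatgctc
E2f3, chr13:29986064-29986313, minus strand: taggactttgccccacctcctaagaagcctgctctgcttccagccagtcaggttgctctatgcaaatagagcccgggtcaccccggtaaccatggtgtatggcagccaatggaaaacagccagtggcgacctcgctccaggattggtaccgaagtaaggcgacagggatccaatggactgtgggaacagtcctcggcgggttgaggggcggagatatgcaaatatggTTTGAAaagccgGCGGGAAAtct
E2f2, chr4:136172024-136172273, plus strand: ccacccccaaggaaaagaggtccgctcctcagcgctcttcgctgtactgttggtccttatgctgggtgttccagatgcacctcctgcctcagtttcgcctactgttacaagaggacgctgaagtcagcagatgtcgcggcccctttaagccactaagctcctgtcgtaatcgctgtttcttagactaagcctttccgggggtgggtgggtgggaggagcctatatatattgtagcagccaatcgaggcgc
The E2F letters searched on both strands were TTTCCCGC, TTTCGCGC, TTTGCCGC and TTTGGCGC, the CHR letters were TTTGAA, and CCAAT was searched as well. No motif's letters overlapped those of another in these windows. The E2f7 window held GCGGGAAA, the reverse complement of TTTCCCGC, at 198 to 191 bases before the start, and the E2f3 window held it at 11 to 4 bases before the start, just after a TTTGAA at 23 to 18. The E2f2 window shown held neither, and all 3 windows held CCAAT or its reverse complement. Of the windows not shown, a second E2f2 window, 8508 bases from the gene edge, held TTTGAA at 31 to 26 bases before its start. The E2f8 window, whose start lies 477 bases from the gene edge, held the reverse complement TTCAAA at 20 to 15. Those of E2f1, E2f6 and Mybl2 and the second of E2f3 held neither the E2F nor the CHR letters searched. Their starts lie 466, 56, 308 and 1673 bases from the gene edge, so part or all of each window lies inside the gene. Sites that differ from the exact letters were not searched, so an absence of these letters does not show an absence of sites. Of 32851 windows of this length in the table, 1.86% held E2F letters, 16.0% the CHR letters and 33.8% CCAAT. These matches are a description of the letters, not of binding.

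Among the activators, E2f1 (chr2:154559400-154569892) was the only one of the 10 whose footprints rose on Elp3 knockdown. Its footprints were at 33.6, 31.6 and 35.9 CPM in control A, B and C and at 58, 52.1 and 51.2 CPM in shElp3, so all 3 knockdown libraries lay above all 3 controls. The edgeR log2 fold change in RPF was 0.67 (SE 0.13, 95% interval 0.36 to 0.98, adjusted p = 0.0375), and 1.77% of the 11343 genes tested in RPF were called higher. Its RNA did not share that pattern, with 27.6, 69.2 and 66.3 CPM in control and 38.9, 56.3 and 55.1 CPM in shElp3. Control A was the lowest of these RNA values, knockdown B and C lay below control B and C, and the groups overlapped. The RNA log2 fold change of E2f1 was -0.12 (SE 0.37, edgeR adjusted p = 0.955). The footprint call held from letters B and C only (0.61, edgeR adjusted p = 0.00899), where 9.41% of all genes were called higher. It was lost when any 1 of the 6 footprint libraries other than control A was left out (edgeR adjusted p 0.099 to 0.168), while the log2 fold change stayed between 0.61 and 0.72 in all 13 alternatives.

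E2f2, the second activator, had RNA at 3.58, 17.3 and 13.8 CPM in control A, B and C and at 2.4, 4.4 and 5.36 CPM in shElp3. The control of letter A lay below both B and C of the knockdown, so the groups overlapped although each letter was lower in shElp3. The RNA log2 fold change was -1.52 without the letter (SE 0.59, edgeR adjusted p = 0.35), and E2f2 RNA fell with the letter as a term (-1.33, SE 0.30, adjusted p = 0.0104). Its footprints were at 0.84, 5.47 and 3.83 CPM against 0.879, 0.824 and 1.5 CPM, which rest on 6 to 55 reads a library. The footprint log2 fold change of E2f2 was -1.68 (SE 0.64, edgeR adjusted p = 0.166). E2f3, the third, overlapped between groups in both fractions. Its RNA was at 13.3, 40.2 and 36 CPM in control and 14.9, 27.8 and 30.3 CPM in shElp3 (log2 fold change -0.29, 95% interval -1.36 to 0.77), and its footprint log2 fold change was -0.26 (SE 0.32).

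**Figure D1:**
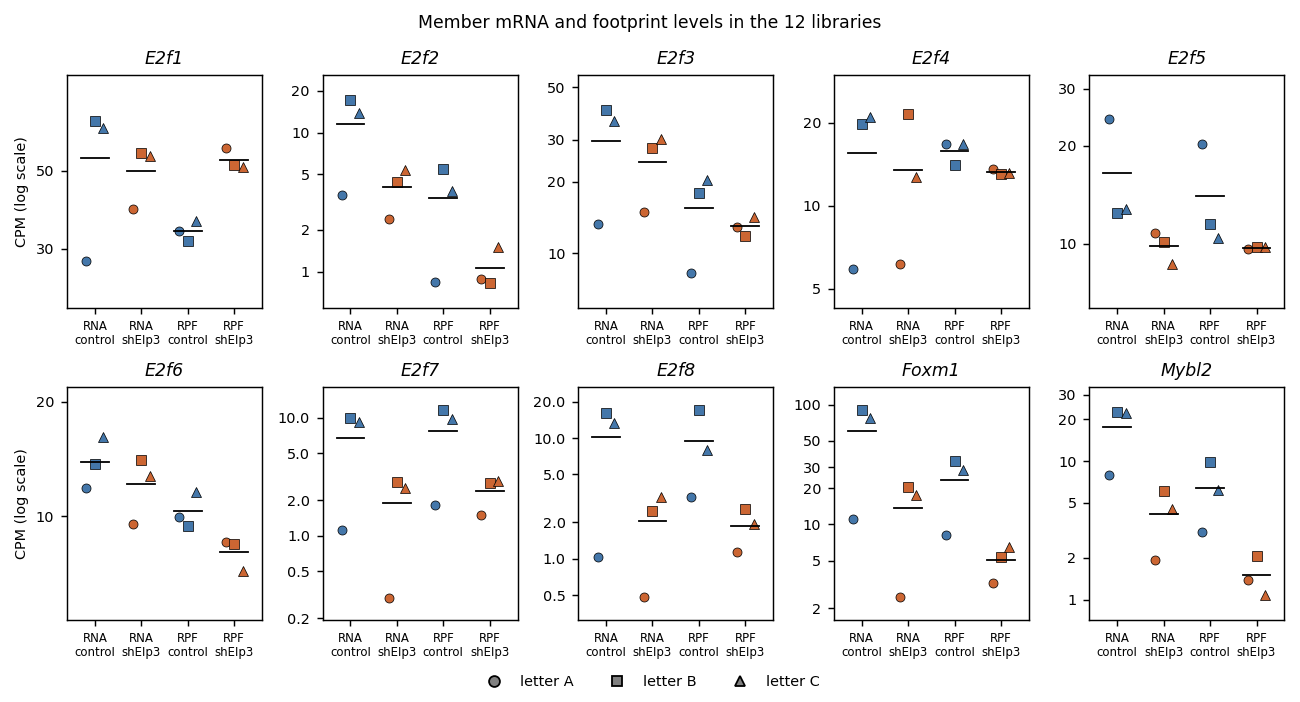
CPM (TMM scaled, log axis) of each of the 10 genes in the 12 libraries, with RNA and footprints (RPF) of shControl (blue) and shElp3 (orange), the letters as symbols and the mean of 3 libraries as a bar. E2f1 footprints lie between 51.2 and 58 CPM in shElp3, above the control range of 31.6 to 35.9, whereas Foxm1, Mybl2, E2f7 and E2f8 have lower means in shElp3 in both fractions and a low letter A in control.

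The repressor class E2f4, E2f5 and E2f6 held no called gene in either shRNA comparison. E2f4, the main partner of pocket proteins in resting cells, had RNA at 5.89, 19.8 and 21 CPM in control and 6.12, 21.6 and 12.7 CPM in shElp3. Its footprints were at 16.8, 14.1 and 16.7 CPM against 13.6, 13 and 13.2 CPM, with every knockdown value below every control, and the log2 fold change was -0.26 (SE 0.17, edgeR adjusted p = 0.395). E2f5 stood out for its control of letter A, the highest of the 6 in each fraction: 24.2, 12.4 and 12.8 CPM in control RNA and 10.8, 10.1 and 8.68 CPM in shElp3 RNA. Its log2 fold change was -0.74 in RNA (SE 0.33, adjusted p = 0.423, and 0.0771 with the letter as a term) and -0.43 in RNA from letters B and C only. E2f5 footprints were at 20.2, 11.5 and 10.4 CPM in control and 9.66, 9.79 and 9.76 CPM in shElp3, or -0.52 as a log2 fold change (SE 0.28, edgeR adjusted p = 0.306). For E2f6, which represses with Polycomb proteins rather than pocket proteins, the log2 fold changes were -0.20 in RNA (95% interval -0.81 to 0.41) and -0.36 in RPF (95% interval -0.81 to 0.10).

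Both atypical factors were lower in shElp3 RNA within every letter. E2f8 RNA was at 1.04, 16.1 and 13.4 CPM in control and 0.48, 2.5 and 3.23 CPM in shElp3, and E2f8 footprints at 3.22, 17.1 and 7.93 CPM against 1.13, 2.58 and 1.93 CPM. In footprints every knockdown library lay below every control, and in RNA control A lay below knockdown B and C. The log2 fold change of E2f8 RNA was -2.32 without the letter (SE 1.00, edgeR adjusted p = 0.407) and E2f8 RNA fell with the letter as a term (-2.11, SE 0.35, adjusted p = 0.001). The footprint log2 fold change was -2.31 (SE 0.61, adjusted p = 0.0724). E2f7 RNA was at 1.12, 9.99 and 9.13 CPM in control and 0.3, 2.85 and 2.52 CPM in shElp3, with letter A resting on 15 and 5 reads. Within letters A, B and C its RNA log2 ratios of shElp3 to control were -1.90, -1.81 and -1.85, and E2f7 RNA fell with the letter as a term (-1.83, SE 0.33, edgeR adjusted p = 0.00205, against -1.87, SE 0.94 and adjusted p = 0.5 without it). Its footprints were at 1.82, 11.7 and 9.84 CPM in control and 1.51, 2.78 and 2.9 CPM in shElp3 (log2 fold change -1.71, SE 0.61, adjusted p = 0.15).

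Foxm1 (chr6:128362994-128375886), the forkhead factor of the G2 programme, had RNA at 11.2, 90.4 and 77.4 CPM in control A, B and C and 2.46, 20.6 and 17.7 CPM in shElp3. Letter A was low in both groups, so that control A lay below knockdown B and C, yet the log2 ratio of shElp3 to control was -2.18, -2.14 and -2.13 within the 3 letters. Without the letter the RNA log2 fold change was -2.15 with an SE of 0.92 (edgeR adjusted p = 0.404), and with it Foxm1 RNA fell by 2.15 on the log2 scale with an SE of 0.19 (adjusted p = 4.65e-06). Foxm1 footprints were at 8.12, 33.8 and 28.5 CPM in control and 3.26, 5.36 and 6.54 CPM in shElp3, with no overlap. The footprint log2 fold change was -2.21 (SE 0.51, edgeR adjusted p = 0.0521), just short of the threshold of 0.05.

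Mybl2 (chr2:163054327-163084688), which encodes B-MYB, had groups that did not overlap in either fraction. Its RNA was at 7.9, 22.7 and 22.3 CPM in control and 1.92, 6.06 and 4.5 CPM in shElp3, and its footprints at 3.08, 9.84 and 6.2 CPM against 1.38, 2.06 and 1.07 CPM. The RNA log2 fold change was -2.10 (SE 0.55, edgeR adjusted p = 0.155) without the letter, and Mybl2 RNA fell with it (-2.09, SE 0.25, adjusted p = 6.15e-05). Its footprint log2 fold change was -2.08 (SE 0.48, adjusted p = 0.051). Of its relatives, Mybl1 had log2 fold changes of -0.37 in RNA and -0.06 in RPF, neither called, and Myb failed the filter on low counts.

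Counted over the 10 genes, all of which passed the filter in both fractions, edgeR called 0 lower or higher in RNA. Of the 12274 genes tested in RNA, 0.921% were called lower and 0.22% higher. In RPF edgeR called 1 of the 10 higher and 0 lower, beside 1.77% of 11343 genes called higher and 3.06% lower. At an unadjusted p under 0.05 there were 2 of the 10 in RNA, beside 12.4% of all genes, and 6 in RPF, beside 23.1%. DESeq2 called 1 in RNA, beside 5.31% of all genes, and 4 in RPF, beside 11.5%. With the letter as a term in RNA, 5 of the 10 were called lower (E2f2, E2f7, E2f8, Foxm1 and Mybl2), beside 6.75% of all genes. Letters B and C only gave the same 5 in RNA, beside 10.5%, and the same 5 lower in RPF, beside 12.2%. The groups did not overlap, with shElp3 lower, for E2f5 and Mybl2 in RNA, where 9.56% of genes did so, and for E2f4, E2f5, E2f6, E2f8, Foxm1 and Mybl2 in RPF, where 15.3% did so. E2f1 in RPF was the 1 gene of the 10 with shElp3 wholly higher, as were 15.4% of all genes tested. The median log2 fold change of the 10 was -1.13 in RNA and -1.10 in RPF, beside -0.02 and -0.01 over all genes tested. In these bulk cultures, fewer cells in a phase of the cycle and less RNA per cell cannot be told apart.

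**Figure D2:**
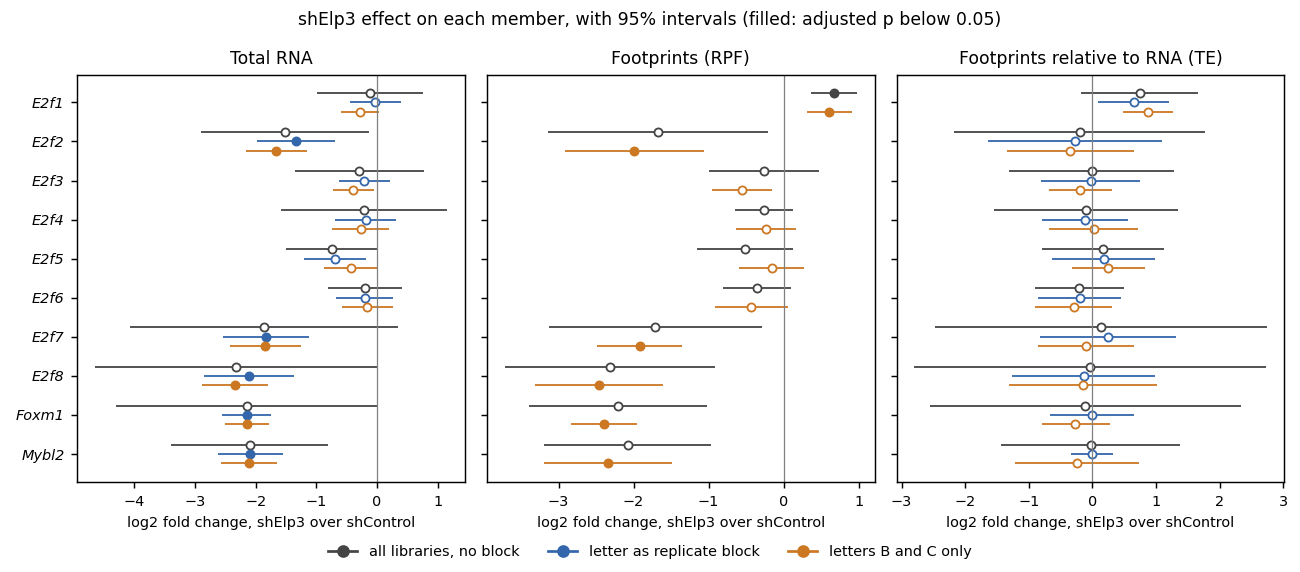
Log2 fold change of shElp3 over shControl with its 95% interval for each gene in RNA, footprints and footprints relative to RNA, from all libraries (grey), with the letter as a term (blue, not drawn for RPF) and from letters B and C only (orange). Filled points passed an edgeR adjusted p of 0.05: E2f2, E2f7, E2f8, Foxm1 and Mybl2 lower in RNA once letter A was modelled or left out, the same 5 lower in RPF from letters B and C only, and E2f1 higher in RPF in both fits drawn.

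Letter A was low for most of the 10 genes in the RNA of both groups. In control RNA, letter A was at 7.08% of the mean of B and C for E2f8, 11.7% for E2f7, 13.3% for Foxm1, 23% for E2f2 and 35.1% for Mybl2. E2f1, E2f3 and E2f4 RNA of control A were at 40.7%, 35% and 28.9%, E2f6 was at 79.3%, and E2f5 was the exception at 192%. In shElp3 RNA letter A was about as far below B and C for Foxm1 (12.9%), E2f7 (11.2%) and Mybl2 (36.4%), at 16.8% for E2f8, and less far below for E2f2 (49.2%) and E2f1 (69.9%). Control footprints of letter A gave 25.8% for E2f8, 16.9% for E2f7, 26.1% for Foxm1, 18.1% for E2f2 and 38.4% for Mybl2, but 99.6% for E2f1 and 109% for E2f4. In shElp3 footprints letter A was nearer to B and C, at 50.1% for E2f8, 53.1% for E2f7, 54.8% for Foxm1, 75.5% for E2f2 and 88.1% for Mybl2. The low control A was thus seen in both fractions for these 5 genes and for E2f3 (43.3% in RPF), and in RNA alone for E2f1 and E2f4. The median of the 30 mitotic targets in the same control RNA libraries was 40.4, 72.9 and 54 CPM, and that of the 30 replication targets 47.5, 75 and 62.5 CPM, so letter A was the lowest there too. In control footprints the medians were 38.9, 125 and 98.2 CPM for the mitotic targets and 34.3, 116 and 91.4 CPM for the replication targets, again with letter A the lowest. Whether this difference lies in the culture or in the library was not tested.

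**Figure D3:**
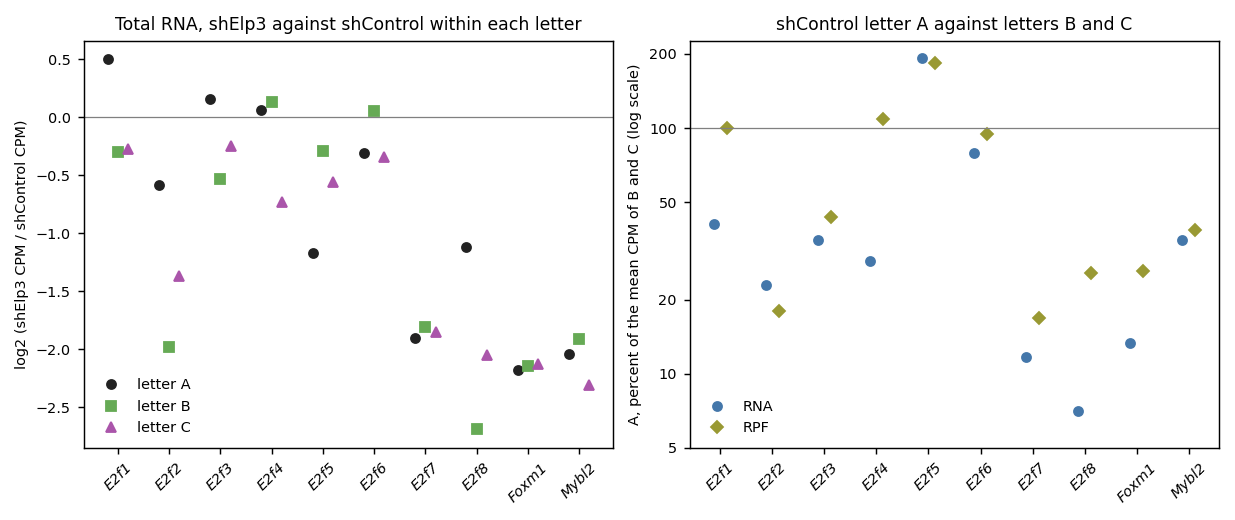
Left, log2 ratio of shElp3 to shControl CPM in total RNA within each letter; right, CPM of shControl letter A as a percent of the mean of letters B and C (log axis) in RNA and footprints. Foxm1, E2f7 and Mybl2 keep ratios near -2 in all 3 letters, while control letter A reaches down to 7.08% for E2f8 and up to 192% for E2f5 in RNA.

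Footprints relative to RNA, the usual measure of translational efficiency (TE), were compared as the interaction of fraction and shRNA. E2f1 had footprint to RNA ratios of 1.22, 0.457 and 0.541 in control A, B and C and 1.49, 0.925 and 0.928 in shElp3. The ratio of E2f1 was higher in shElp3 in 3 of 3 letters, with means of 0.739 ± 0.418 and 1.11 ± 0.325 (SD, n = 3), but control A lay above knockdown B and C. Its TE log2 change was 0.74 (SE 0.42, 95% interval -0.18 to 1.66, edgeR adjusted p = 1), 0.65 with a term for each letter in each fraction (95% interval 0.09 to 1.21) and 0.88 from letters B and C only (95% interval 0.48 to 1.27, adjusted p = 0.718). None of the 10 genes passed in TE under any of these fits, and of all genes tested 0% were called in the first, 0% in the second and 0.0177% in the last. Foxm1 and Mybl2 had TE changes of -0.11 and -0.02, with 95% intervals of -2.55 to 2.33 and -1.43 to 1.38 that narrowed to -0.66 to 0.65 and -0.34 to 0.33 with the letter terms. The intervals of either fit span changes of either sign, so neither shows that TE was unchanged. The letter terms also block the RPF libraries, which were otherwise treated as unpaired. The intervals with these terms, that of E2f1 included, depend on that block. The other 7 genes had TE changes from -0.21 for E2f6 to 0.17 for E2f5.

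**Figure D4:**
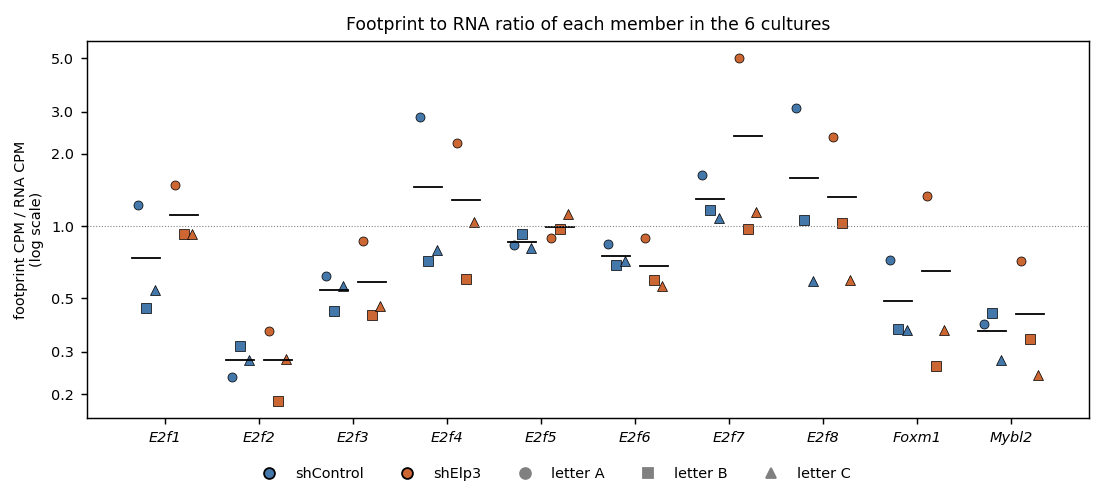
Footprint CPM divided by RNA CPM of each gene (log axis) in the 6 cultures, with shControl in blue, shElp3 in orange, letters as symbols and the mean of 3 cultures as a bar. E2f1 is higher in shElp3 in each letter (1.49, 0.925 and 0.928 against 1.22, 0.457 and 0.541), and letter A is the highest culture of its group for E2f1, E2f3, E2f4, E2f6, E2f7, E2f8 and Foxm1.

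In control cells, the same 2 fractions were set against each other for the 7 genes that passed the filter there; E2f2, E2f7 and E2f8 did not. Without the letter edgeR called 0 of the 7, beside 23.1% of 10583 genes, and DESeq2 called 0 as well, beside 32.0%. At an unadjusted p under 0.05 there was 1 of the 7, Mybl2, beside 38.5% of all genes. With the letter as a term, which pairs the fractions of one culture, 3 of the 7 had fewer footprints than their RNA, relative to the other genes, beside 20.1% of all genes. These were Mybl2 with a log2 ratio of -1.37 (SE 0.23, adjusted p = 0.0141), Foxm1 with -1.03 (SE 0.26, adjusted p = 0.0369) and E2f3 with -0.79 (SE 0.20, adjusted p = 0.0357). E2f1 was at -0.48 (SE 0.33), E2f6 at -0.32, E2f5 at -0.11 and E2f4 at 0.29, and none of these passed. From letters B and C only, where all 10 genes were tested, 5 were called lower beside 35.7% of all genes. Besides E2f3, Foxm1 and Mybl2 these were E2f1 at -0.89 (edgeR adjusted p = 7.63e-05) and E2f2 at -1.64 (adjusted p = 9.72e-05), while E2f4 turned to -0.30. Whether reads were counted over coding sequence or whole transcripts is not given in the sources used here, so the length of a gene's untranslated regions may enter this ratio, which was not tested.

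The DP partners and pocket proteins held no called gene of 5 in either fraction, beside 1.14% of all genes called in RNA and 4.83% in RPF. Rbl1, which encodes the pocket protein p107, had the lowest values, with log2 fold changes of -1.13 in RNA (SE 0.33, edgeR adjusted p = 0.204) and -1.08 in RPF (SE 0.32, adjusted p = 0.0984), and Rbl1 RNA fell with the letter as a term (-1.06, adjusted p = 0.00202). Tfdp1 and Tfdp2, the DP partners, were at -0.53 and -0.38 in RNA, and Rb1 and Rbl2 at 0.13 and 0.24. The MuvB core of 5 genes held none either, with a median of -0.46 in RNA and -0.27 in RPF. Its DNA-binding subunit gene Lin54 was at -1.09 in RNA (SE 0.27, adjusted p = 0.133) and fell with the letter as a term (-1.07, adjusted p = 0.00298), whereas Lin9, Lin52, Lin37 and Rbbp4 lay between -0.71 and -0.24.

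Of the cyclins, kinases and inhibitors of G1, 11 of 13 were tested in RNA and 10 in RPF. In each fraction 2 fell with none higher, beside 0.921% of all genes called lower in RNA and 3.06% in RPF. Cdk2, the partner kinase of cyclin E, fell in RNA (log2 fold change -1.94, edgeR adjusted p = 0.0234) and in RPF (-2.02, adjusted p = 0.0104). Ccnd3, a D-type cyclin that helps release E2F from pocket proteins, fell by 1.51 on the log2 scale in RNA and by 1.31 in RPF (adjusted p = 0.0287 and 0.0124). With the letter as a term 4 fell in RNA, beside 6.75% of all genes.

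The genes that E2F factors are known to drive in late G1 and S phase were lower as a list. In RNA 10 of 30 were called lower and in RPF 11 of 30, none higher, beside 0.921% and 3.06% of all genes. Their medians were -1.65 and -1.61, beside -0.02 and -0.01 over all genes tested. With the letter as a term 29 of 30 fell in RNA, beside 6.75% of all genes. Cdc45, a subunit of the replicative helicase, fell by 2.16 on the log2 scale in RNA and by 2.32 in RPF, and Pcna, the polymerase clamp, by 1.47 and 1.37. Cdt1, a licensing factor, fell by 1.75 in RNA and passed in RPF as well (edgeR adjusted p = 0.0163). The targets of MuvB with FOXM1 or B-MYB in G2 and mitosis were lower still, with medians of -2.50 and -2.42. Of these, 23 of 30 were called lower in RNA and 25 of 30 in RPF, none higher, beside the same 0.921% and 3.06%. All 30 of 30 fell in RNA with the letter as a term, beside the same 6.75%. Cdc20, whose product starts anaphase by activating a ubiquitin ligase, went down from 35.9 ± 3.38 to 4.55 ± 0.381 CPM in RNA and from 60 ± 20.5 to 7.5 ± 1.94 CPM in RPF (SD, n = 3). The Aurora kinase genes Aurka and Aurkb fell too, with RNA log2 fold changes of -2.70 and -2.47. These lists were chosen with earlier results of the same data known and are given as description.

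The apoptosis genes linked to E2F1 gave no call from all libraries among 7 tested in RNA and 6 in RPF, with medians of 0.19 and 0.17. Of all genes, 1.14% were called in RNA and 4.83% in RPF. From letters B and C only, 1 of the 7 was called higher and 1 lower in RNA, beside 8.88% and 10.5% of all genes. A link to the E2f1 footprints was not tested. Apaf1, which encodes the core of the apoptosome, was at 158 ± 23 CPM in control RNA and 183 ± 15.3 CPM in shElp3 RNA (SD, n = 3), and its log2 fold changes were 0.21 in RNA and 0.40 in RPF (edgeR adjusted p = 0.804 and 0.208).

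**Figure D5:**
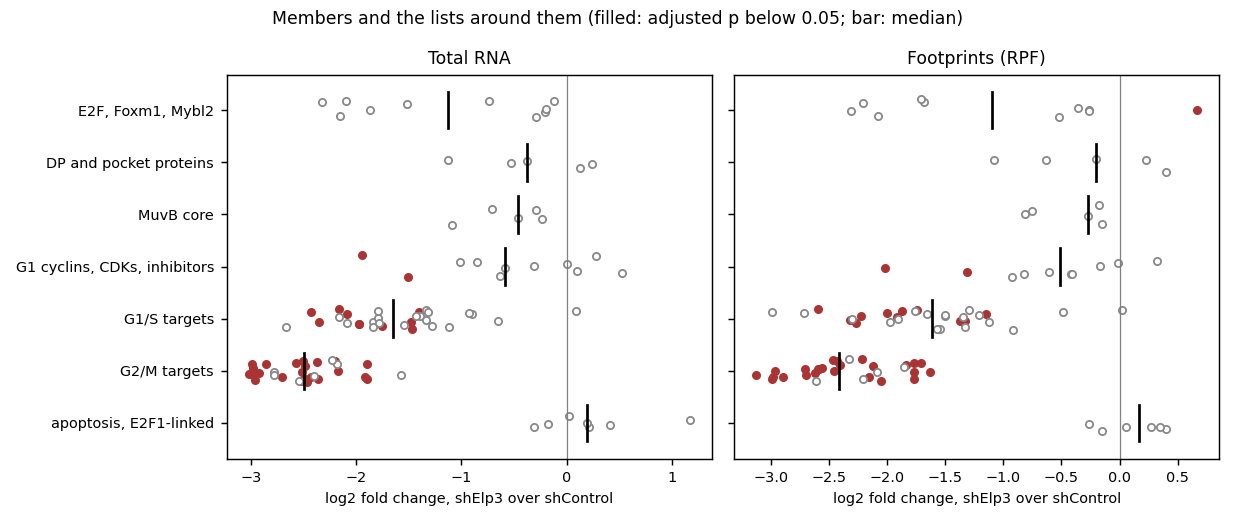
Log2 fold change of shElp3 over shControl for the 10 genes and for the lists around them in RNA and footprints, 1 point a gene, filled where the edgeR adjusted p passed 0.05 and with the median as a bar. The E2F, Foxm1 and Mybl2 medians of -1.13 and -1.10 lie between those of the MuvB core (-0.46 and -0.27) and of the mitotic targets (-2.50 and -2.42), and E2f1 is the filled point above 0 in footprints.

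The genes whose log2 CPM followed each factor most closely over the 12 libraries, centred within each fraction, were taken as a description. These libraries come from 6 cultures and share the differences of letter A and of the shRNA. Kif18b, a mitotic kinesin, followed E2f7 with a Pearson r of 0.995, ahead of the proliferation marker Mki67 at 0.986. Rad21, a cohesin subunit, followed Foxm1 at 0.983, and Lig1, the replicative DNA ligase, followed Mybl2 at 0.980. Wdr76 followed E2f2 at 0.989, Rapgef2 followed E2f8 at 0.984 and Nup160, a nucleoporin, followed E2f3 at 0.989. For E2f1 the closest were Cald1, an actin-binding protein, at 0.931, Myo9a at 0.918 and Fndc3b at 0.917. S100a11 followed E2f4 at 0.985, Cebpz followed E2f5 at 0.981 and BC052040 followed E2f6 at 0.923.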

How the data were processed

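Per the labels' protocols, both kinds of library came from the TruSeq Ribo Profile (Mammalian) kit. The authors deposited raw integer read counts, 1 row a gene symbol, without normalization. The tools that the submitters' processing notes name are TopHat2 2.1.1, HTSeq, Bowtie and bcl2fastq, with the build mm10. What annotation, strand setting and feature were counted is not given in the sources used here, so reads of overlapping or antisense genes may be mixed.

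Groups came from the labels, 3 libraries each. Genes were kept by filterByExpr (minimum count 10, in both fractions for TE and for the control ratio), scaled by TMM and tested with edgeR 4.0.16 in R 4.3.3 (glmQLFit, glmQLFTest) with p-values adjusted by Benjamini-Hochberg over the whole table and called at 0.05. The functions were tested on simulated data. SE is the log2 fold change divided by the root of F, and intervals are at 95%. The chi-square per degree of freedom between libraries of one group was 8.56 or more, so no library was a copy of another in its group. Libraries of different groups were not compared in this way.

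Letters were taken to pair libraries where same-letter deviations from the group means correlated above 0.1 in every pair: r was 0.819, 0.451 and 0.603 in RNA (A, B, C), 0.789, 0.489 and 0.515 in TE and 0.478, 0.506 and 0.417 between the control fractions, where the labels also tie the libraries. The deviations within a group cancel out for each gene, so where letter A stands apart in both groups, B and C correlate partly because of it. These values alone therefore cannot show that letters B and C pair the libraries. RPF gave 0.341, -0.109 and 0.221, and RPF libraries were treated as unpaired in the RPF comparison. The TE fit with a term for each letter in each fraction nevertheless blocks the RPF libraries by letter.

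All 10 genes are named. From the other lists up to 4 called genes by adjusted p, or up to 2 by mean CPM where none was called, could be named, all genes of the partner and MuvB lists, and the 3 genes most like each factor (mean log2 CPM of at least 3, pseudocount 0.5). A gene that this rule picks is not reported here. The 10 genes and the lists were chosen with earlier results of these data known. Promoter windows and gene coordinates are those of RefSeq on GRCm38.p6. Alternatives were DESeq2 1.42.0, limma voom 3.58.1 for TE, DESeq2 size factors, other filters, blocks, letters B and C only, leaving out the 20 most abundant genes, and leaving out each library. A block for each letter in each fraction was added for TE after seeing the data.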

Additional observations from a re-analysis of the deposited data

How the results depend on the processing

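Over 571 alternative values of the 10 genes, 464 kept direction and side of the threshold, 45 gained a call, 5 lost one (E2f1 footprints, each with 1 library left out) and 57 changed sign. With the replicate block, genes called went from 140 to 1499 in RNA (5 of the 10 genes). In the control ratio they went from 2443 to 3736 (3 of the 7 genes tested there). In RPF, where letters did not pair the libraries, 4 of the 10 were called among 666 genes (E2f1 higher, E2f8, Foxm1 and Mybl2 lower). DESeq2 called 652 genes in RNA and 1308 in RPF, with 1 and 4 of the 10. No filter on low counts gave 4 of the 10 in RPF, a count for which the share of all genes called is not given here. Letters B and C only gave 2377 genes in RNA (5 of the 10), 2477 in RPF (6), 7555 in the control ratio (5) and 2 in TE (0). Leaving out 1 library gave 0 to 540 genes in RNA (0 to 3 of the 10), 0 to 2856 in RPF (0 to 7) and 482 to 4799 in the control ratio (0 to 4). In RPF the 0 came without any 1 shElp3 library and the 2856 without control A.

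Changes of sign were found in TE, RNA and the control ratio, in values that passed no test. With the replicate block TE was 0.063 for E2f3, 0.024 for Foxm1 and 0.038 for Mybl2. DESeq2 size factors gave 0.016 for E2f3 and 0.006 for Mybl2, DESeq2 0.018 for E2f3, a culture block 0.003 for E2f3 and 0.023 for Mybl2, and limma voom 0.163 for Foxm1 and 0.116 for Mybl2. Letters B and C only gave TE of 0.015 for E2f4 and -0.104 for E2f7, and a control ratio of -0.295 for E2f4. With 1 library left out, TE ran from -0.624 to 0.313 for E2f2, -0.301 to 0.342 for E2f3, -0.388 to 0.427 for E2f4, -0.213 to 0.531 for E2f5, -0.376 to 0.659 for E2f7, -0.546 to 0.712 for E2f8, -0.561 to 0.39 for Foxm1 and -0.331 to 0.432 for Mybl2. RNA ran from -0.438 to 0.1 for E2f1 and -0.734 to 0.139 for E2f4, and the control ratio from -0.265 to 0.417 for E2f4 and -0.468 to 0.244 for E2f5. The cause of these moves was not tested.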
